A study of Mus musculus with 4 samples.

Results

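The liver arm of the study set mouse liver that had received *Ulk1* siRNA against mouse liver that had received a negative control siRNA, and it is described here across all genes. The members are the probe sets that carry 1 gene symbol, with the probe set of the highest mean standing for a gene, and a gene was kept when the higher of its liver values reached that array's median over genes. In this way 11602 of 22180 genes were kept. The mice were males of the background strain labelled C57N1/6N, given as C57BL/6N in the methods, and were 6 weeks old according to the labels. The *Ulk1* siRNA group, whose genotype label reads Ulk1 siRNA, received 40 ug of siRNA against *Ulk1* by hydrodynamic tail vein injection, 3 times at intervals of 24 h. The control group, labelled WT, received a negative siRNA in the same way, so that both groups carry the effects of the injections, the delivery reagent and foreign double-stranded RNA. Liver was analysed 72 h after administration. Hydrodynamic injection pushes a large volume rapidly into the vein and carries siRNA mainly into hepatocytes, and no untreated liver is part of the series. The remaining 2 of the 4 arrays hold AML12 cells, a mouse hepatocyte line, with *Ulk1* siRNA or negative siRNA.

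There was 1 Affymetrix Mouse Gene ST array for each condition, and the methods state that a pool of 4 samples was analysed. Differences between mice can therefore not be seen, and no error, test or p-value between the groups is given. All values are log2 expression as deposited, and a difference is *Ulk1* siRNA minus control on that scale. The precision is limited by the number of arrays. The only repeat measurement is that of different probe sets of the same gene, whose differences had a pooled SD of 0.297 over 396 genes. This SD covers the error of probes and leaves out the spread between mice and between pools.

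ULK1 is a serine/threonine kinase that starts the formation of autophagosomes when nutrients are short, in a complex with ATG13, RB1CC1 (FIP200) and ATG101, and it is held in check by mTORC1 and activated by AMPK. The liver is a tissue of many cell types. Hepatocytes make plasma proteins, lipids and bile acids, hepatic stellate cells store retinol as esters and lay down matrix, sinusoidal endothelial cells line the capillaries and Kupffer cells are the resident macrophages. In inflammation, cytokines such as interleukin 6 and interleukin 1 act through STAT3, NF-kB and C/EBP factors on hepatocytes, which then secrete acute phase proteins.

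*Ulk1* itself had a log2 expression of 8.46 in the *Ulk1* siRNA liver and 8.73 in the control liver. The signal was thus 83.0% of control, and the difference of -0.27 was smaller than the SD between probe sets of a gene. That SD comes from other genes, since *Ulk1* has 1 probe set. These values are of RNA, whereas the paper shows silencing of ULK1 protein in mouse liver by immunoblot, which the arrays do not measure. All 6 genes of the ULK complex list lay below their control values, against 54.2% of all genes. The largest difference among them was that of *Atg101* at -0.44, whereas *Rb1cc1* stood at 8.29 on both arrays. The paralogs *Ulk2* and *Ulk3* had differences of -0.17 and -0.18. Of 31 genes of the autophagy machinery, 14 were above control and 17 below, and none reached 1 log2, with *Atg14*, a subunit of the class III PI3 kinase complex, the highest at 0.47. The lysosome list gave a median of 0.00 across 24 genes.

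Across all 11602 genes the liver arrays were close to each other. The Pearson correlation of the liver arrays was 0.989 across 22180 genes, which are not independent replicates. The median difference was -0.03, 54.2% of the genes lay below control, and 89.5% of the genes lay within 0.5 log2 of 0. Of the genes kept, 59 were higher by 1 log2 or more, which is 0.509% of those examined, and 76 were lower by at least that much, which is 0.655%. The gene just inside the upper threshold differed by 1.002 and the gene just outside it by 0.987, and the corresponding values at the lower threshold were -1.002 and -0.995.

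Larger differences were found mostly among higher genes, with 9 genes higher by at least 2 log2 and 1 gene lower by that size. Many higher genes were weakly expressed. The median of the mean levels was 4.86 for the 59 higher genes and 5.94 for the 76 lower genes, against an array median of 4.42 in the *Ulk1* siRNA liver and 4.41 in the control liver. With the genes ranked by mean level and split into 5 bins of equal size, the weakest bin held 33 higher and 22 lower genes. The SD of the differences was 0.425 in the weakest bin and 0.259 in the strongest. Where both arrays had to reach the median, 23 higher and 53 lower genes were left. Among genes with a mean level of 8 or more, 11 were higher and 13 lower, and 7 of the 11 belonged to the acute phase list.

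**Figure D1:**
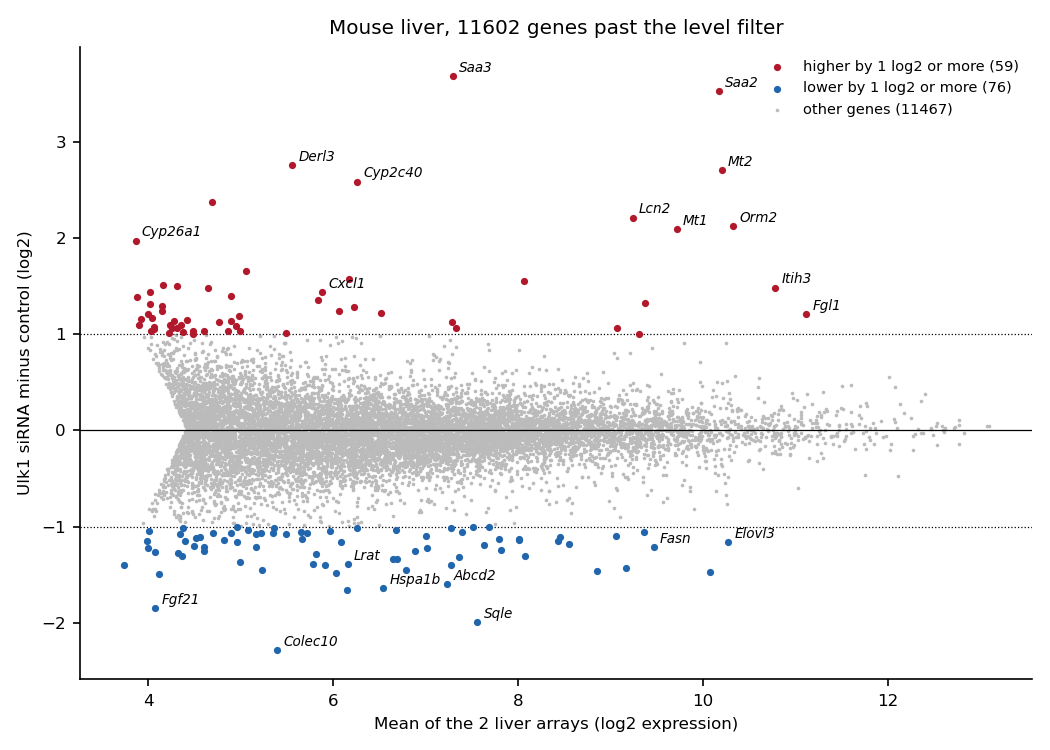
Mean log2 expression of the liver arrays (horizontal axis) against the log2 difference of *Ulk1* siRNA minus control (vertical axis) for the 11602 genes past the level filter, 1 point per gene, with dotted lines at 1 and -1. The 59 higher genes include several of high expression, such as *Saa2*, *Mt2* and *Orm2*, and the spread of the grey points narrows as the level increases.

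Acute phase proteins had the highest median in the *Ulk1* siRNA liver among the 77 lists with at least 5 genes kept. Of 30 genes kept, 28 were above their control values, against 45.8% of all genes, and 9 were higher by 1 log2 or more, against 0.509%. The median difference was 0.46, against -0.03 for all genes. The genes with the largest differences were the serum amyloids *Saa3* and *Saa2*, the metallothioneins *Mt2* and *Mt1*, *Lcn2* and *Orm2*. The start regions of these 6 genes, the 250 bases before the annotated start in the RefSeq promoter table for GRCm38.p6, are printed below on the strand of the gene. In those of *Mt1* and *Mt2* the capitals mark the core of the metal response element, TGCACNC or TGCGCNC, which binds the zinc-sensing factor MTF1. In the other 4 they mark TTNNGCAA, a core of the sites bound by C/EBP factors. Both strands were searched, a palindrome was counted once, and these motifs were chosen with the sequences in view.
Mt1 (chr8:94178839-94179088, plus strand): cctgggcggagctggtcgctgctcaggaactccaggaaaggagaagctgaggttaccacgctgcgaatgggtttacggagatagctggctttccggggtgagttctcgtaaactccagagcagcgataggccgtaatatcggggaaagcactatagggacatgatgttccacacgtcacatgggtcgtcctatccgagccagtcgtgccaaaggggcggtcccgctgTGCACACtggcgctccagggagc
Mt2 (chr8:94172368-94172617, plus strand): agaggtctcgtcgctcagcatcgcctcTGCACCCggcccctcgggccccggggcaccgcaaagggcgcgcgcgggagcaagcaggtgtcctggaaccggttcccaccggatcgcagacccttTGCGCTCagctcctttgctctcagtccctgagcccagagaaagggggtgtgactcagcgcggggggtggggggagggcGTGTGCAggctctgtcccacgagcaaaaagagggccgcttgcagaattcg
Saa2 (chr7:46751583-46751832, plus strand): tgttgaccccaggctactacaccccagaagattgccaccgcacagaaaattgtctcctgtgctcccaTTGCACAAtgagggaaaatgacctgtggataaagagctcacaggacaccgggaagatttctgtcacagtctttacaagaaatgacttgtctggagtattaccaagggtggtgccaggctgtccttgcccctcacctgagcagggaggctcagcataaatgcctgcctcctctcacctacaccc
Saa3 (chr7:46715677-46715926, minus strand): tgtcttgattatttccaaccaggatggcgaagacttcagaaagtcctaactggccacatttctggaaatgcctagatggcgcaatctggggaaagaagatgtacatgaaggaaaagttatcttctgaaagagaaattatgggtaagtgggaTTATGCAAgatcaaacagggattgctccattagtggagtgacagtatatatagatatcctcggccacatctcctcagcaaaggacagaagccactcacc
Orm2 (chr4:63362199-63362448, plus strand): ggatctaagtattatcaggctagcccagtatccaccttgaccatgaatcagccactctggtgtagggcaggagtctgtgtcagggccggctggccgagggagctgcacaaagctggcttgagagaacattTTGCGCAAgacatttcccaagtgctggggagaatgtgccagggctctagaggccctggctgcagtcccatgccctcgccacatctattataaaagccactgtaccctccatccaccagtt
Lcn2 (chr2:32387740-32387989, minus strand): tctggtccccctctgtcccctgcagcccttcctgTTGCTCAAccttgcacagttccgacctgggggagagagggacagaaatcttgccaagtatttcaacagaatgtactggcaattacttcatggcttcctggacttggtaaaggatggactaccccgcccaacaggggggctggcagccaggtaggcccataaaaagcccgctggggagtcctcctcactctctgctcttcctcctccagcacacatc

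Within the 250 bases searched, the metal response core occurred 3 times before *Mt2* and 1 time before *Mt1*. Sequence outside these windows, including that after the annotated start, was not searched, so the counts are not those of whole promoters. At least 1 such core was present in 21.4% of 32851 promoter windows of this length and at least 3 in 1.26%. The C/EBP core occurred 1 time before each of *Saa2*, *Saa3*, *Orm2* and *Lcn2*, and at least 1 was present in 9.56% of the windows. A match of letters is a description of the sequence and does not show that a factor was bound.

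The serum amyloid A proteins are carried on high density lipoprotein and are among the most inducible proteins of the acute phase. *Saa3* had a log2 expression of 9.14 in the *Ulk1* siRNA liver and 5.45 in the control liver, a difference of 3.68 or 12.9-fold. *Saa2* stood at 11.93 in the *Ulk1* siRNA liver and 8.41 in the control liver, which is 11.5-fold higher. A probe set shared by *Saa1* and *Saa2*, left out of the genes because it carries 2 symbols, had 12.29 in the *Ulk1* siRNA liver and 10.18 in the control liver. These genes are near-identical copies, so their signals may be mixed between them. *Saa4*, the constitutive member of the family, had 11.74 in the *Ulk1* siRNA liver and 11.28 in the control liver, a difference of 0.46.

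Among the transport proteins of the list, *Orm2*, an orosomucoid, had 11.39 in the *Ulk1* siRNA liver and 9.27 in the control liver. Its relatives differed by 1.57 for *Orm3* and by 0.40 for *Orm1*, and the signals of these close copies may likewise be mixed. *Lcn2*, which encodes the iron siderophore binding protein lipocalin 2, had 10.35 in the *Ulk1* siRNA liver and 8.13 in the control liver, or 4.63-fold. *Itih3*, a heavy chain of the inter-alpha-trypsin inhibitors that bind hyaluronan, differed by 1.48, and *Lbp*, which presents lipopolysaccharide to its receptor, by 1.00. The list thus held genes with differences of very different size.

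Not all acute phase genes took part to this extent. The fibrinogen genes *Fga*, *Fgb* and *Fgg* had differences of 0.03, 0.30 and 0.13. *Hp*, the haemoglobin scavenger haptoglobin, differed by 0.45, *Hpx*, the haem carrier hemopexin, by 0.37, and *Crp*, C-reactive protein, by 0.19. *Hamp*, the hormone of iron balance, had 12.27 in the *Ulk1* siRNA liver and 12.09 in the control liver. Beyond the list, *Fgl1*, a fibrinogen-like protein secreted by hepatocytes, had 11.72 in the *Ulk1* siRNA liver and 10.52 in the control liver, and *Prg4*, a lubricating proteoglycan, had 10.04 in the *Ulk1* siRNA liver and 8.72 in the control liver.

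**Figure D2:**
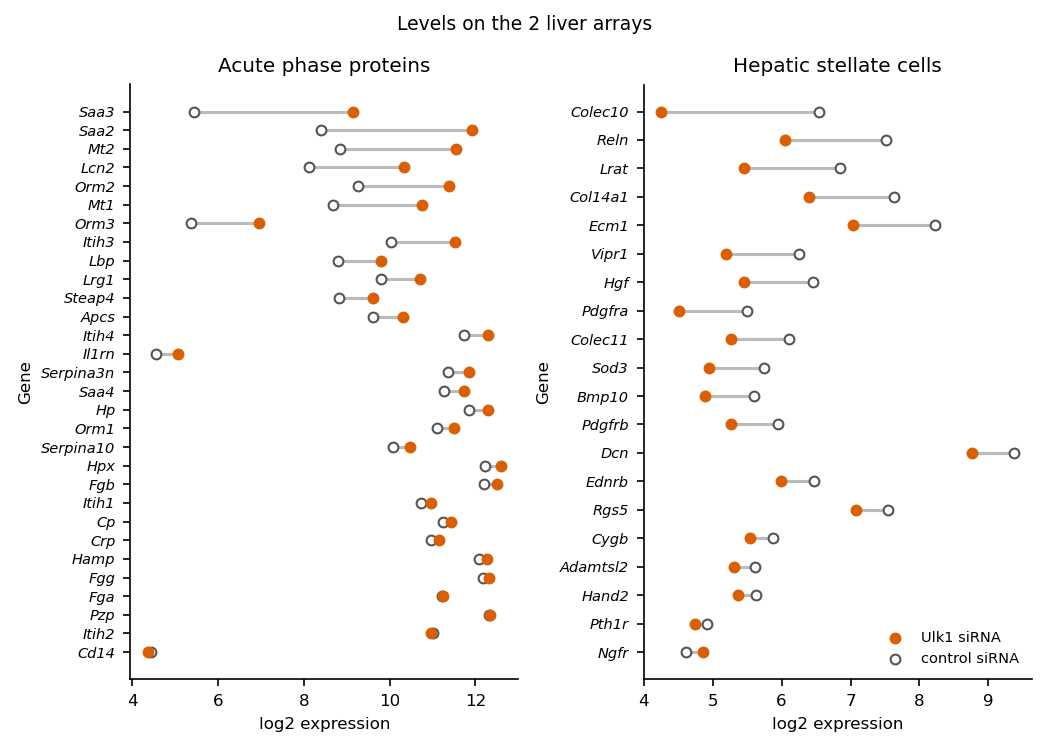
Log2 expression (horizontal axis) of each acute phase gene (left panel) and each hepatic stellate cell marker (right panel) past the filter, with *Ulk1* siRNA as filled and control siRNA as open circles, 1 array each, ordered by the difference. Of the acute phase genes 28 of 30 lie above control, and of the stellate markers 19 of 20 lie below control.

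The metallothioneins bind zinc and copper and are induced by zinc, glucocorticoids and interleukin 6. *Mt2* had 11.56 in the *Ulk1* siRNA liver and 8.85 in the control liver, and *Mt1* had 10.76 in the *Ulk1* siRNA liver and 8.67 in the control liver, which is 6.53-fold and 4.26-fold higher. Other genes of zinc handling did not share this size of difference, and 17 genes of the list had a median of 0.00. *Slc39a14*, the zinc and iron importer that interleukin 6 induces, differed by 0.40. *Slc39a4*, another zinc importer, had 7.96 in the *Ulk1* siRNA liver and 8.72 in the control liver, and the factor *Mtf1* differed by -0.28. Without the metallothioneins, the 28 remaining acute phase genes had a median of 0.45, and 7 were higher by 1 log2 or more.

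Genes of the signalling upstream of the acute phase differed less as a list, although single genes differed by about as much as the acute phase median of 0.46. The list of interleukin 6 and interleukin 1 signalling gave a median of 0.08 across 22 genes, and none reached 1 log2. Another 10 of its 32 measured genes were under the array median on both arrays. *Socs3*, a feedback inhibitor of STAT3 signalling, differed by 0.55, *Il1r1*, the interleukin 1 receptor, by 0.51, and *Stat3* by 0.43. The inhibitor *Il1rn* differed by 0.52, while the accessory receptor *Il1rap* differed by -0.50.

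Among 16 NF-kB targets with a median of 0.14, 1 gene was past 1 log2. It was *Cxcl1*, a chemokine for neutrophils, with 6.60 in the *Ulk1* siRNA liver and 5.16 in the control liver. The chemokines *Ccl4* and *Ccl2* differed by 0.73 and 0.57 at low levels, and *Cxcl10*, an interferon-induced chemokine, by -0.59. The list of chemokines and receptors gave a median of 0.14 across 20 genes. *Tnfaip2* had 5.39 in the *Ulk1* siRNA liver and 6.34 in the control liver, so the members of the NF-kB list differed in both directions.

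Markers of leukocytes gave the following values beside these genes. None of the 16 neutrophil markers reached the array median on either array, and their summed linear signal in the *Ulk1* siRNA liver was 98.6% of that in the control liver. *S100a8* and *S100a9*, which define neutrophils, had 2.17 and 3.44 in the *Ulk1* siRNA liver and 2.33 and 3.13 in the control liver. Of 24 markers of Kupffer cells and macrophages, 17 were above control, against 45.8% of all genes, with a median of 0.15. Of the 7 below control, *Id3* differed by -0.63 and *Folr2* by -0.29. *Cd163*, a scavenger receptor for haemoglobin, differed by 0.76 and *Marco*, a scavenger receptor, by 0.63, whereas *Clec4f*, which defines Kupffer cells in mice, differed by 0.01 and *Adgre1* (F4/80) by 0.08. *Csf2rb*, the shared receptor chain for GM-CSF and interleukin 3, had 5.89 in the *Ulk1* siRNA liver and 4.23, under the array median, in the control liver. The part of macrophages in the acute phase values was not tested. In a bulk sample, fewer cells of a type and less RNA per cell cannot be told apart.

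Interferon-stimulated genes, which respond to double-stranded RNA among other signals, were not higher as a group in the *Ulk1* siRNA liver than in the control liver. Of 32 genes, 21 were below control and 11 above, against 54.2% of all genes below control. The median was -0.10, and none was past 1 log2 in either direction. *Cmpk2* had 5.76 in the *Ulk1* siRNA liver and 6.68 in the control liver, *Ifit1* differed by -0.59, and *Zbp1*, a sensor of Z-form nucleic acids, was the highest at 0.54. *Dhx58*, which encodes the RNA sensor LGP2, had 5.49 in the *Ulk1* siRNA liver and 6.26 in the control liver. Since both groups received siRNA, the comparison does not show what siRNA itself did to these genes.

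**Figure D3:**
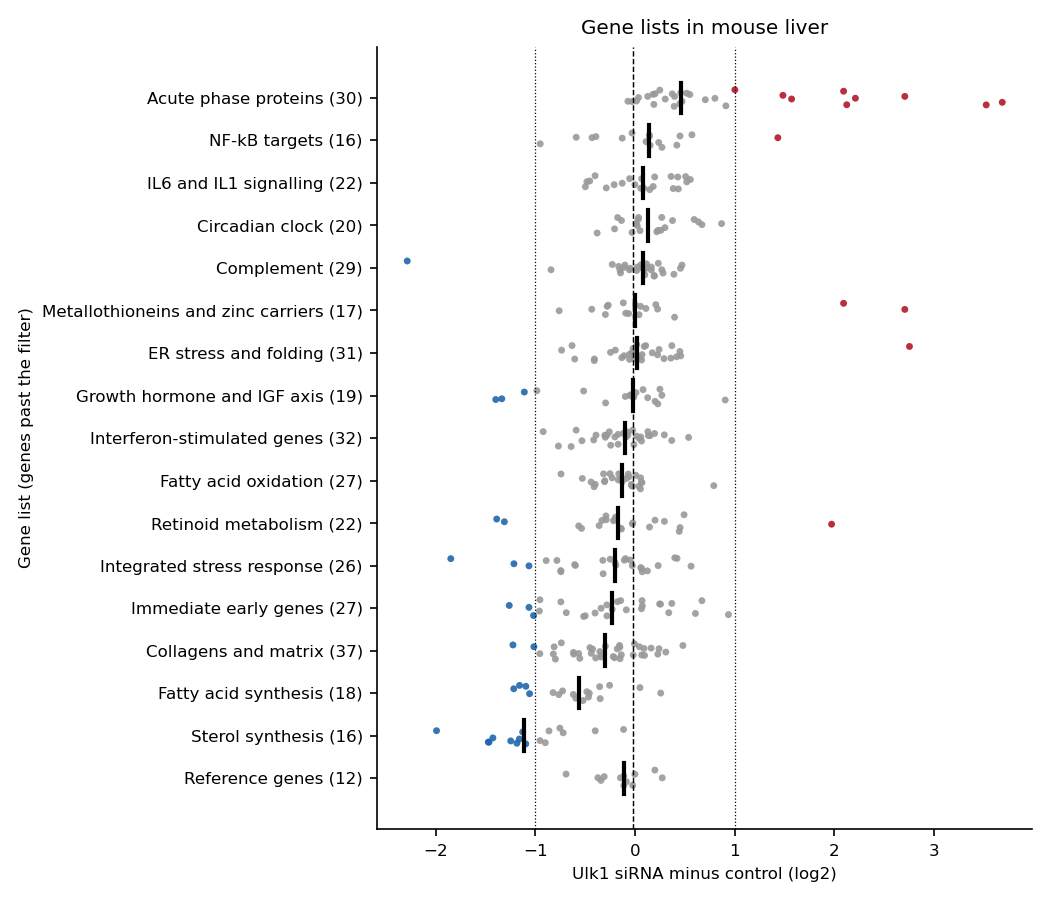
Log2 differences of *Ulk1* siRNA minus control (horizontal axis) for the genes of 17 lists (rows, with the number of genes past the filter), 1 point per gene. Thick bars are list medians, the dashed line is the median of all genes at -0.03, and red and blue points are past 1 log2. The acute phase list lies to the right, and the fatty acid and sterol synthesis lists lie to the left.

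*Derl3*, a component of the machinery that draws misfolded proteins out of the endoplasmic reticulum, had 6.93 in the *Ulk1* siRNA liver and 4.18 in the control liver, where it was under the array median. Other genes of the ER stress list did not follow it. The 31 genes had a median of 0.02, and *Derl3* was the only member past 1 log2. The next highest were the chaperones *Dnajb11* at 0.46 and *Hyou1* at 0.42, while *Dnajb9*, a target of XBP1, had 8.62 in the *Ulk1* siRNA liver and 9.36 in the control liver. *Derl3* is also abundant in plasma cells. Of the other markers of B and plasma cells, *Ighm* and *Sdc1* differed by 0.02 and 0.21, and *Prdm1* by -0.28.

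Hepatic stellate cell markers had the lowest median among the cell type lists, at -0.75. Of 20 markers kept, 19 were below control, against 54.2% of all genes, and 6 were lower by 1 log2 or more, against 0.655%. Their summed linear signal, over all 23 markers measured, was 57.0% of that of the control liver. *Colec10*, a collectin of the lectin complement pathway, had 4.25 in the *Ulk1* siRNA liver and 6.54 in the control liver and was the lowest of all genes, although its value in the *Ulk1* siRNA liver was under the array median. *Reln*, which encodes the secreted glycoprotein reelin, had 6.06 in the *Ulk1* siRNA liver and 7.51 in the control liver. *Lrat*, which esterifies retinol for storage, had 5.46 in the *Ulk1* siRNA liver and 6.85 in the control liver, or 38.2% of control. The growth factor *Hgf* had 5.46 in the *Ulk1* siRNA liver and 6.45 in the control liver, and the receptors *Pdgfra* and *Pdgfrb* differed by -0.99 and -0.68. *Dcn*, the small proteoglycan decorin, had 8.76 in the *Ulk1* siRNA liver and 9.38 in the control liver. Of these 20 markers, 4 were past the filter in AML12 cells.

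The defining markers of stellate cells did not all differ to the same extent. *Cygb*, a globin of stellate cells, and the transcription factor *Hand2* differed by -0.34 and -0.26, and the receptor *Ngfr* by 0.24. *Des* and *Gfap*, intermediate filaments of these cells, stayed under the array median on both arrays, with 3.86 and 3.58 in the *Ulk1* siRNA liver and 3.75 and 3.69 in the control liver. Among 9 markers of activated stellate cells and fibroblasts with a median of -0.25, which became 0.074 with no level filter, *Col1a1*, *Col1a2* and *Col3a1* had differences of -0.57, -0.81 and -0.80. *Acta2*, the smooth muscle actin, was higher, with 7.49 in the *Ulk1* siRNA liver and 6.73 in the control liver.

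Collagens and other matrix genes were lower as well, with 28 of 37 genes below control, 2 lower by 1 log2 or more and a median of -0.30. Without the 3 genes shared with the stellate list, the 34 remaining genes had a median of -0.21, and the part of stellate cells in their values was not tested. *Col14a1*, a fibril-associated collagen, had 6.40 in the *Ulk1* siRNA liver and 7.63 in the control liver, and *Fbln5*, which organizes elastic fibres, had 4.86 in the *Ulk1* siRNA liver and 5.87 in the control liver. Some matrix genes differed less, such as *Fn1*, the fibronectin that hepatocytes secrete, at 0.16 and *Col18a1* at 0.07. In the TGF-beta and BMP list, 21 of 29 genes were below control, against 54.2% of all genes, with a median of -0.23. *Tgfbi*, a matrix protein induced by TGF-beta, had 6.86 in the *Ulk1* siRNA liver and 7.92 in the control liver, and *Ccn2*, a matricellular protein also induced by it, differed by 0.67.

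Retinoid genes outside the stellate markers differed in both directions. *Cyp26a1*, which breaks down retinoic acid and is induced by it, had 4.85 in the *Ulk1* siRNA liver and 2.87 in the control liver, where it was under the array median. *Rdh11*, a retinol dehydrogenase, had 6.70 in the *Ulk1* siRNA liver and 8.01 in the control liver. The receptors *Rara* and *Rarg* differed by 0.49 and 0.45. The 22 genes of the list, which include the stellate marker *Lrat*, had a median of -0.17. Without *Lrat*, the 21 remaining genes had a median of -0.14, and 7 of them were above control.

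Other cell types of the liver gave values nearer to that of all genes. Sinusoidal endothelial markers gave a median of -0.10 across 26 genes, with *Ehd3* and *Lyve1* at -0.58 and -0.57 and *Wnt9b* at 0.69, and none past 1 log2. Hepatocyte markers gave a median of 0.03 across 14 genes, and *Alb*, which encodes albumin, had 13.12 in the *Ulk1* siRNA liver and 13.07 in the control liver. Among the hepatocyte zones, 20 of 26 pericentral markers were below control, against 54.2% of all genes, with a median of -0.18. Of 23 periportal markers, 15 were above control, against 45.8% of all genes, with a median of 0.02. *Glul*, the pericentral glutamine synthetase, and *Cyp2e1* differed by -0.18 and -0.20, and the periportal enzymes *Ass1* and *Hal* by 0.57 and 0.49. Other markers of each zone went the other way. The pericentral markers *Slc1a2* and *Cyp2a5* differed by 0.62 and 0.56, and the periportal marker *Hsd17b6* by -0.33. Of 14 cholangiocyte markers measured, 10 were under the array median on both arrays, among them *Krt7*, *Krt19* and *Epcam*. The 4 kept had a median of -0.19. They were *Aqp1*, *Slc4a2*, *Anxa4* and *Sox9*, which is also in the periportal list.

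Adult globin transcripts, which come from blood in the tissue, were measured by probe sets with several symbols. The best expressed of these, for *Hba-a1* and *Hba-a2*, had 8.46 in the *Ulk1* siRNA liver and 9.48 in the control liver. Of the 3 probe sets for the adult beta globins, 1 had 5.63 in the *Ulk1* siRNA liver and 7.20 in the control liver, and the others differed by -2.76 and -1.62. The probe set at -2.76 was under the array median in the *Ulk1* siRNA liver, at 3.04. The one at -1.62 was under it on both arrays, with 1.54 in the *Ulk1* siRNA liver and 3.15 in the control liver. The remaining probe set for the alpha globins had 5.68 in the *Ulk1* siRNA liver and 5.19 in the control liver, and gave 5.05 in *Ulk1* siRNA and 5.06 in control AML12 cells. Of these 5 probe sets, 4 were thus lower. A probe set shared by *Alas2*, the first enzyme of haem synthesis in red cells, and *Apex2* differed by -0.55. The 3 erythroid and blood markers kept as genes went in both directions, with *Slc4a1* at 0.25, *Tal1* at 0.21 and *Tfrc* at -0.69. The part of blood content in the other differences was not tested.

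**Figure D4:**
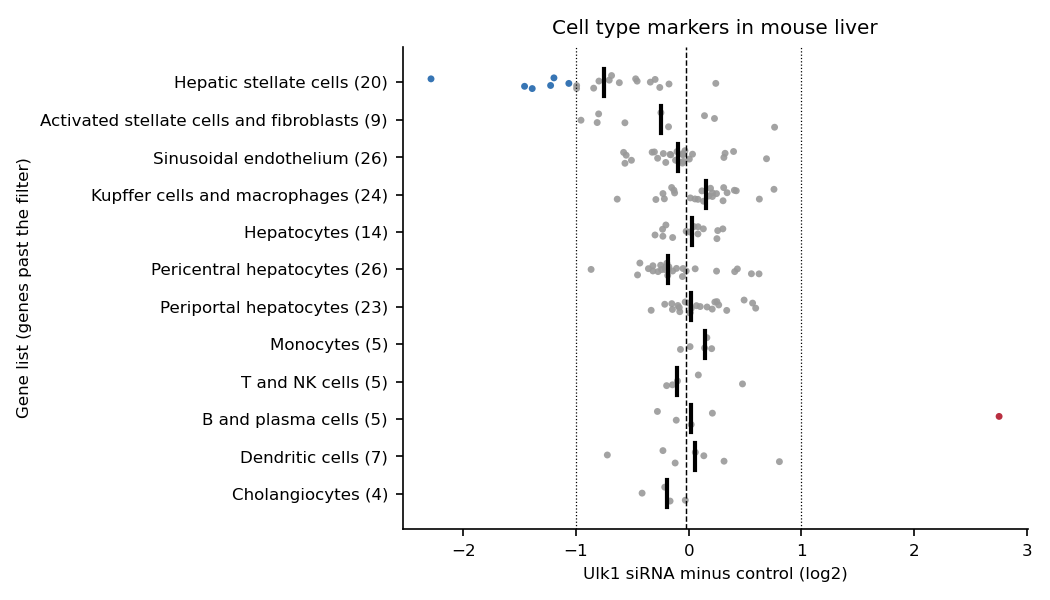
Log2 differences of *Ulk1* siRNA minus control (horizontal axis) for markers of 12 liver and blood cell types (rows, with the number of genes past the filter), 1 point per gene, with thick bars at list medians and the dashed line at the median of all genes. The stellate markers have the lowest median at -0.75 and the Kupffer cell markers a median of 0.15.

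In lipid metabolism beyond sterols, fatty acid synthesis genes were lower in the *Ulk1* siRNA liver, with a median of -0.56. Of these 18 genes, 16 were below control, against 54.2% of all genes, and 4 were lower by 1 log2 or more, against 0.655%. The sterol synthesis list, given for comparison, gave a median of -1.11 across 16 genes. *Fasn*, the fatty acid synthase, had 8.86 in the *Ulk1* siRNA liver and 10.08 in the control liver. The elongases followed, *Elovl3* with 9.70 in the *Ulk1* siRNA liver and 10.86 in the control liver, and *Elovl6* and *Elovl5* with differences of -1.06 and -0.77. *Acaca*, *Acacb* and *Me1*, which supply malonyl-CoA and NADPH, differed by -0.62, -0.73 and -0.82. The regulators did not differ this way, with *Srebf1*, the sterol response factor of lipogenesis, at 0.26 and *Mlxipl*, the carbohydrate response factor ChREBP, at 0.05. *Pklr*, the liver pyruvate kinase, differed by -0.63.

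Genes of fat storage, transport and oxidation differed less. Glycerolipid and lipid droplet genes gave a median of -0.11 across 22 genes, with *Plin2*, a coat protein of lipid droplets, at -0.59. *Lpl*, the lipoprotein lipase, had 7.01 in the *Ulk1* siRNA liver and 8.02 in the control liver, and *Mfsd2a*, a transporter of lysophospholipids, had 8.84 in the *Ulk1* siRNA liver and 7.28 in the control liver. *Abcd2*, a peroxisomal transporter of very long chain fatty acids, had 6.44 in the *Ulk1* siRNA liver and 8.03 in the control liver, while the 17 genes of the peroxisome biogenesis list had a median of -0.04. Of 27 fatty acid oxidation genes, 20 were below control, against 54.2% of all genes, with a median of -0.13 and none past 1 log2. In the bile acid list, *Nr0b2* (SHP), the repressor induced by bile acids through FXR, had 6.25 in the *Ulk1* siRNA liver and 7.51 in the control liver. *Cyp8b1*, which sets the ratio of bile acid species, differed by -0.71, and *Cyp7a1*, the rate-limiting enzyme, had 10.78 in the *Ulk1* siRNA liver and 10.92 in the control liver.

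The 26 genes of the integrated stress response had a median of -0.20, against -0.03 for all genes, and 3 were lower by 1 log2 or more. Of these genes 18 were below control, in a comparison in which 54.2% of all genes were. The median was -0.12 with no level filter. *Fgf21*, a hormone secreted by the liver in fasting and stress, had 3.15 in the *Ulk1* siRNA liver, under the array median, and 5.00 in the control liver. *Phgdh*, the first enzyme of serine synthesis, had 4.55 in the *Ulk1* siRNA liver and 5.77 in the control liver, and *Asns*, the asparagine synthetase, differed by -0.78. *Atf4*, the central factor of this response, differed by -0.11. The heat shock gene *Hspa1b* had 5.72 in the *Ulk1* siRNA liver and 7.36 in the control liver, whereas 28 heat shock genes had a median of -0.03. *Hspa1b* has a near-identical copy in *Hspa1a*, whose probe set was under the array median on both arrays.

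Immediate early genes, which respond within minutes to growth factors, injury and handling, gave a median of -0.23 across 27 genes, and 3 were lower by 1 log2 or more. Of these 27 genes, 17 were below control, in a comparison in which 54.2% of all genes were. *Jun* had 5.75 in the *Ulk1* siRNA liver and 6.77 in the control liver, *Atf3* had 4.82 in the *Ulk1* siRNA liver and 5.89 in the control liver, and *Egr3* differed by -1.26 at low level. *Gadd45g* and *Klf2* differed by 0.94 and 0.61, so the list was not uniform. In the growth list, *Ccnd1*, the cyclin of G1, had 6.77 in the *Ulk1* siRNA liver and 7.78 in the control liver, and the inhibitor *Cdkn1a* had 4.62 in the *Ulk1* siRNA liver and 5.51 in the control liver. Mitosis genes gave a median of -0.10 across 32 genes, with 1 gene lower by 1 log2 or more, the kinase *Aurkb* at -1.45.

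Of 20 circadian clock genes, 15 were above control, against 45.8% of all genes, with a median of 0.13. *Per1* had 7.76 in the *Ulk1* siRNA liver and 6.89 in the control liver, *Noct* and *Usp2* differed by 0.67 and 0.64, and *Nr1d1* (REV-ERB alpha) by -0.38. The hours at which the livers were taken are not given in the sources used here. Glucocorticoid targets differed in both directions, with *Mt2*, *Lcn2* and *Per1* above control, *Igfbp1* and *Dusp1* at -1.40 and -0.69, and a median of 0.07 over 21 genes.

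Of the 4 insulin-like growth factor binding proteins in the list, 3 were lower by 1 log2 or more, and *Igfbp4* differed by 0.13. *Igfbp1* had 6.57 in the *Ulk1* siRNA liver and 7.97 in the control liver, *Igfbp3* had 6.02 in the *Ulk1* siRNA liver and 7.36 in the control liver, and *Igfbp2* had 7.90 in the *Ulk1* siRNA liver and 9.01 in the control liver. *Igf1* had 10.51 in the *Ulk1* siRNA liver and 10.50 in the control liver. Of the growth hormone response, the repressor *Bcl6* differed by -0.99 and the feedback inhibitor *Cish* by 0.90. The male-biased liver genes gave a median of -0.06 across 29 genes and the female-biased genes of 0.00 over 22 genes.

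Genes of drug metabolism differed mainly as individual genes. *Cyp2c40*, a member of the arachidonic acid metabolizing P450 family, had 7.55 in the *Ulk1* siRNA liver and 4.97 in the control liver. It has close copies in the mouse genome, so that its signal may include theirs. *Cyp3a13* differed by 0.90, *Cyp3a25* by -0.81 and *Cyp2c55* by -0.83, and the 21 targets of CAR, PXR and AHR had a median of 0.13. Among 32 phase II enzymes with a median of 0.02, the glutathione transferase *Gstm3* had 7.23 in the *Ulk1* siRNA liver and 8.36 in the control liver, and *Nnmt*, which methylates nicotinamide, differed by 0.90. Of 20 NRF2 targets, 16 were below control, against 54.2% of all genes, with a median of -0.15. *Hmox1*, the haem oxygenase, differed by -0.62.

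Many functions of the hepatocyte had list medians within 0.2 log2 of 0. The medians were 0.12 for gluconeogenesis over 18 genes, 0.02 for glycolysis over 19, -0.01 for the urea cycle over 12, 0.01 for amino acid breakdown over 30 and 0.06 for hepatocyte transcription factors over 23, and no gene of these lists was past 1 log2. Complement genes other than *Colec10* and *Colec11* gave a median of 0.09 across 27 genes, and coagulation genes gave a median of 0.10 across 26 genes. The respiratory chain had a median of -0.10. Of its 33 genes, 26 were below control, against 54.2% of all genes, so most of them shared a small difference in this direction. The reference genes gave a median of -0.11 across 12 genes, with *Actb* at -0.37 and *Hprt* at 0.20, so list medians of this size were also seen among genes often taken as constant. Of 77 lists with at least 5 genes kept, 67 had a median within 0.2 log2 of 0.

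The AML12 arrays are shown beside the liver for these genes. Of the 59 genes higher in liver, 33 were past the filter in AML12 cells, and 0 of them were higher by 1 log2 there. Of all 11437 genes past the filter in AML12 cells, 0.332% were higher by 1 log2 or more and 1.23% lower, so that a count of 0 among 33 genes is near this background. Of the 76 genes lower in liver, 47 were past the filter in AML12 cells and 10 were also lower by 1 log2 or more, among them 7 of sterol synthesis. *Mt2* and *Mt1* differed by -0.19 and -0.07 in AML12 cells and *Lcn2* by -0.17, each at a level above the AML12 median, and the acute phase list gave a median of -0.08 across 18 genes. The fatty acid synthesis list gave a median of -0.30 across 16 genes in AML12 cells, with 2 genes lower by 1 log2 or more, *Scd1* at -1.95 and *Acss2* at -1.07, while *Fasn* differed by -0.02. The 32 liver mitosis genes had a median of -0.10, against -1.25 over 43 genes in AML12 cells. Whether liver and cells differ was not tested, since each had 1 array a group.

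**Figure D5:**
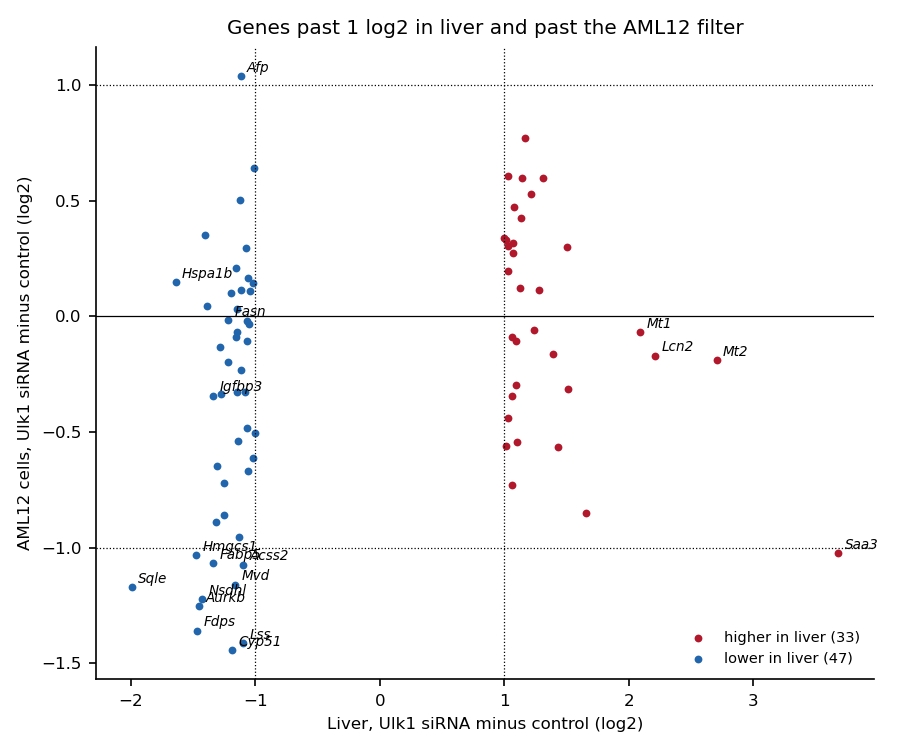
Log2 difference of *Ulk1* siRNA minus control in liver (horizontal axis) and in AML12 cells (vertical axis) for the 33 higher (red) and 47 lower (blue) liver genes that were past the filter in AML12 cells, 1 point per gene, with dotted lines at 1 and -1. The 10 labelled points at the lower left are below -1 in both, and no point lies above 1 in both.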

How the data were processed

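Of the 4 Affymetrix arrays of the series, 2 hold liver. The log2 values were used as deposited by the authors. RMA is named in the processing notes of the submitters, and quantile normalization in Partek in the methods. Whether the 4 arrays were normalized together is not given in the sources used here. Each array was taken to be 1 of the pools of 4 samples that the methods mention. Of 41345 probe sets, 23521 carried 1 gene symbol in the platform annotation, 1820 several and 16004 none, and no genome build is named for them. Groups came from the sample labels.

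Of 2095 entries in 82 gene lists, 1899 matched a measured gene by symbol or, for symbols no longer in use, through RefSeq synonyms, and 196 were not analysed here. The members and lists were chosen with earlier results of these data known. Genes named are the 20 largest differences in each direction (without predicted genes, clones, small RNAs and olfactory or vomeronasal receptors), *Ulk1* and its paralogs, up to 5 genes per list and direction, and the best expressed 3 markers per list. Others, such as *Saa4*, *Orm1*, the fibrinogens, *Lbp*, *Hp*, *Hpx*, *Crp*, *Hamp*, *Srebf1*, *Scd1* and the neutrophil and globin values, were named after their values were seen. The steps were tested on simulated arrays of 11448 genes past the filter, in which 100% of genes changed by 1.5 or 2 log2 were found past 1 log2. The changed genes were all more than 1 log2 above the median level, and the same noise was given to all genes. The simulation therefore does not cover weakly expressed genes, and it does not give the share of unchanged genes past 1 log2. Alternatives were other filters, probe set rules, scalings and list means. The promoter sequences are from RefSeq. Python 3.11.15, numpy 2.4.6, pandas 2.3.3 and statsmodels 0.14.6 were used.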

Additional observations from a re-analysis of the deposited data

Results flagged for a closer look

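Of the genes past the filter in liver and in AML12 cells, 2 differed by 1 log2 or more in opposite directions between them, and the difference between liver and cells was not tested. *Saa3* differed by 3.68 in liver, with 9.14 in the *Ulk1* siRNA liver and 5.45 in the control liver, and by -1.02 in AML12 cells, with 7.53 in *Ulk1* siRNA cells and 8.55 in control cells. *Afp*, the fetal serum protein alpha-fetoprotein, differed by -1.12 in liver, with 3.96 in the *Ulk1* siRNA liver and 5.08 in the control liver, and by 1.04 in AML12 cells, with 5.03 in *Ulk1* siRNA cells and 3.99 in control cells. The lower value of *Afp* was under the array median in both cases.

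Probe sets outside the genes described also carried differences in liver. Of 899 probe sets with several symbols past the filter, 6 were higher by 1 log2 or more and 10 lower. The highest of these was the probe set shared by *Saa1* and *Saa2*, and the lowest a probe set for the adult beta globins at -2.76. Of 5530 probe sets with no symbol here, 373 were higher and 241 lower by 1 log2 or more, which is 6.75% and 4.36%, against 0.519% and 0.725% of the 12143 probe sets with 1 symbol. Their median mean level was 5.55, against 6.33 for probe sets with 1 symbol.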

How the results depend on the processing

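No paired analysis was possible because each group had 1 array. Neither could a replicate be left out. The counts of 59 higher and 76 lower genes became 124 and 153 with no level filter and 352 and 437 at a threshold of 1.5-fold, and 23 genes were higher when both liver values had to reach the median. Under the other settings 55 to 65 genes were higher and 69 to 85 lower. The acute phase mean was 0.92, against a median of 0.46, since a few of its genes had large differences. The *Ulk1* difference ranged between -0.29 and -0.26 and the median of all genes between -0.04 and 0.00. Sign changes were counted only for lists with a median of at least 0.1 log2 in size, and there were 3 such cases. Activated stellate cells and fibroblasts stood at 0.074 with no level filter. Chemokines and receptors stood at -0.012 when both values had to reach the median, and T and NK cells at 0.024 as a mean. Lists with medians nearer to 0 also changed sign, such as complement, with a median of 0.08 and a mean of -0.02. The stellate median ranged between -0.80 and -0.68, the fatty acid synthesis median between -0.59 and -0.52, the matrix median between -0.31 and -0.16, the immediate early median between -0.25 and -0.13 and that of the integrated stress response between -0.31 and -0.12. Of 52 named genes past 1 log2, all kept their direction, and 50 stayed past 1 log2 after loess or quantile normalization of the liver arrays alone. All 52 did so in the remaining alternatives, most of which could hardly change a gene's difference. Genes were followed here whether or not they passed a setting's filter, so the filters left each difference as it was. Of all genes past 1 log2 in liver, 6 had several probe sets, so the probe set rules bore on few of them. Differences of genes under the array median on 1 array are less certain in size.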
